A study of Mus musculus with 18 samples.

Results

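The 35 genes described here encode enzymes and regulators that make, convert and break down sphingolipids. They were taken by gene symbol from the table of 55450 mouse genes, and each of the 35 symbols matched 1 row. RNA was measured in cultures of 3 wild-type mouse cancer cell lines: 4T1 from a breast carcinoma, LLC from a Lewis lung carcinoma and MC38 from a colon adenocarcinoma. Cells received the solvent DMSO or 100 µM sildenafil citrate, an inhibitor of the cyclic GMP phosphodiesterase PDE5, for 24 h in 4T1 and MC38 and for 48 h in LLC. Each of the 6 groups has 3 libraries, 18 in all. 4T1 was grown in RPMI medium and the other lines in DMEM, so effects of the line cannot be told apart from those of the medium in 4T1 or of the duration in LLC. Each line is a single established cell line. The labels do not state that the libraries of a group were grown apart, and the p-values then cover no more than library-to-library spread, part of which may be technical. The series' title concerns PDE5 inhibition and cholesterol trafficking, and the sildenafil comparison asks which of the genes changed in each line.

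Sphingolipids are membrane lipids built on a long-chain amino alcohol. Synthesis starts in the endoplasmic reticulum, where serine palmitoyltransferase joins serine to palmitoyl-CoA, and a reductase, ceramide synthases and a desaturase turn the product into ceramide. In the Golgi, ceramide receives a head group and becomes sphingomyelin, glucosylceramide with its longer glycolipids and gangliosides, or ceramide 1-phosphate. Sphingomyelinases, glycosidases and ceramidases, many of them lysosomal, return these lipids to ceramide and sphingosine. Sphingosine kinases turn sphingosine into the signalling lipid sphingosine 1-phosphate, which a lyase removes from the pathway for good. Sphingomyelin binds cholesterol in membranes, and these lipids share routes through the lysosome and the plasma membrane.

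Library totals ran from 41070021 to 61600646 counts in 4T1, from 29438187 to 36417399 in MC38 and from 26348654 to 32129771 in LLC. Levels are in CPM, the count relative to the library's total after TMM scaling within the line, unless stated, and changes are log2 fold changes of sildenafil over DMSO ± standard error (SE), n = 3 libraries per group. Markers and levels compared between lines were scaled over all 18 libraries, and Gm26917 was taken relative to the unscaled library total. A change was called at an adjusted p under 0.05 from edgeR's quasi-likelihood test over all genes of the line. LLC control replicate 3 stood apart from the other LLC controls: the chi-square per gene between it and these was 53.0 and 44.6, against 2.87 to 15.5 for every other pair of libraries of a group. The predicted noncoding RNA gene Gm26917 also moved with treatment. It went from 157.1 to 163.2 CPM in the 4T1 controls to 243.5 to 284.5 with sildenafil, from 8898 to 14071 CPM in the MC38 controls to 4893 to 5898, and from 9668 to 29653 CPM in the LLC controls to 5883 to 13877. Of the line markers, 8 of 8 epithelial genes reached 1 CPM in 4T1 controls, with Gata3 at 60.6 CPM but Elf5 and Csn2 at 0. In MC38 3 of 8 did, Krt8 among them at 2547 CPM with Epcam at 0, none of 6 colon markers reached 1 CPM, and 5 of 6 fibroblast markers did (Col1a2 518.1 CPM). In LLC 1 of 8 did (Krt8, 212 CPM), and of 6 lung markers only Napsa was above 1 CPM, at 5.13 CPM. The summed level of 8 leukocyte markers went from 9.71 to 10.2 CPM in the 4T1 controls to 37.4 to 38.4 with sildenafil. Of this sum, 9.74 and 37.5 CPM were Cd68, a lysosomal membrane protein, while Ptprc, which marks all leukocytes, was at 0.0758 and 0.102 CPM, and 1 of the 8 genes reached 1 CPM. The summed level of 6 fibroblast markers went from 67.6 to 76.6 CPM in the LLC controls to 144.5 to 156.3, mostly Pdgfra, and in 4T1 from 26.5 to 29.1 to 51.4 to 59.7. In MC38 and LLC the leukocyte sum went from 5.92 to 6.39 to 9.75 to 10.5 and from 2.57 to 3.15 to 4.65 to 5.62 CPM. The epithelial sum went from 2803 to 2905 CPM to 2277 to 2376 in 4T1 and from 2611 to 2672 CPM to 2108 to 2263 in MC38. In LLC it went from 202.8 to 228.2 CPM to 182.2 to 188.9. The part of these markers in the results was not tested, and in bulk RNA fewer cells of a type and less RNA per cell cannot be told apart.

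In every line more of the sphingolipid genes rose with sildenafil than fell. In 4T1, 20 of the 30 members tested rose and 5 fell. All genes tested gave 33.5% higher and 33.3% lower, and the members' median was 0.24 against 0.0023 for all genes. In MC38, 16 of 31 rose and 0 fell, with 19.5% higher and 18.3% lower among all genes, and medians of 0.12 and 0.0040. For the 0 that fell in MC38, edgeR at an unadjusted p under 0.05 and DESeq2 also gave 0. In LLC, 17 of 32 rose and 2 fell, with 15.1% higher and 12.2% lower among all genes, and medians of 0.26 and -0.0062. The members that rose thus made up 66.7%, 51.6% and 53.1% of those tested in 4T1, MC38 and LLC. The members and their groups by role were chosen with earlier results of these data known, so such shares are a description. The members too low to test were Degs2 and Acer2 in every line, Cers4, A4galt and Smpd3 in 4T1, Cers4 and Sgpp2 in MC38, and Smpd3 in LLC. Most changes were small. At a change of at least 1.5-fold the members rising were 8 in 4T1, 3 in MC38 and 3 in LLC, or 26.7%, 9.68% and 9.38% of those tested, while 13.2%, 2.52% and 2.48% of all genes were that much higher. No member fell that far in any line, against 7.06%, 1.04% and 3.38% of all genes.

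**Figure D1:**
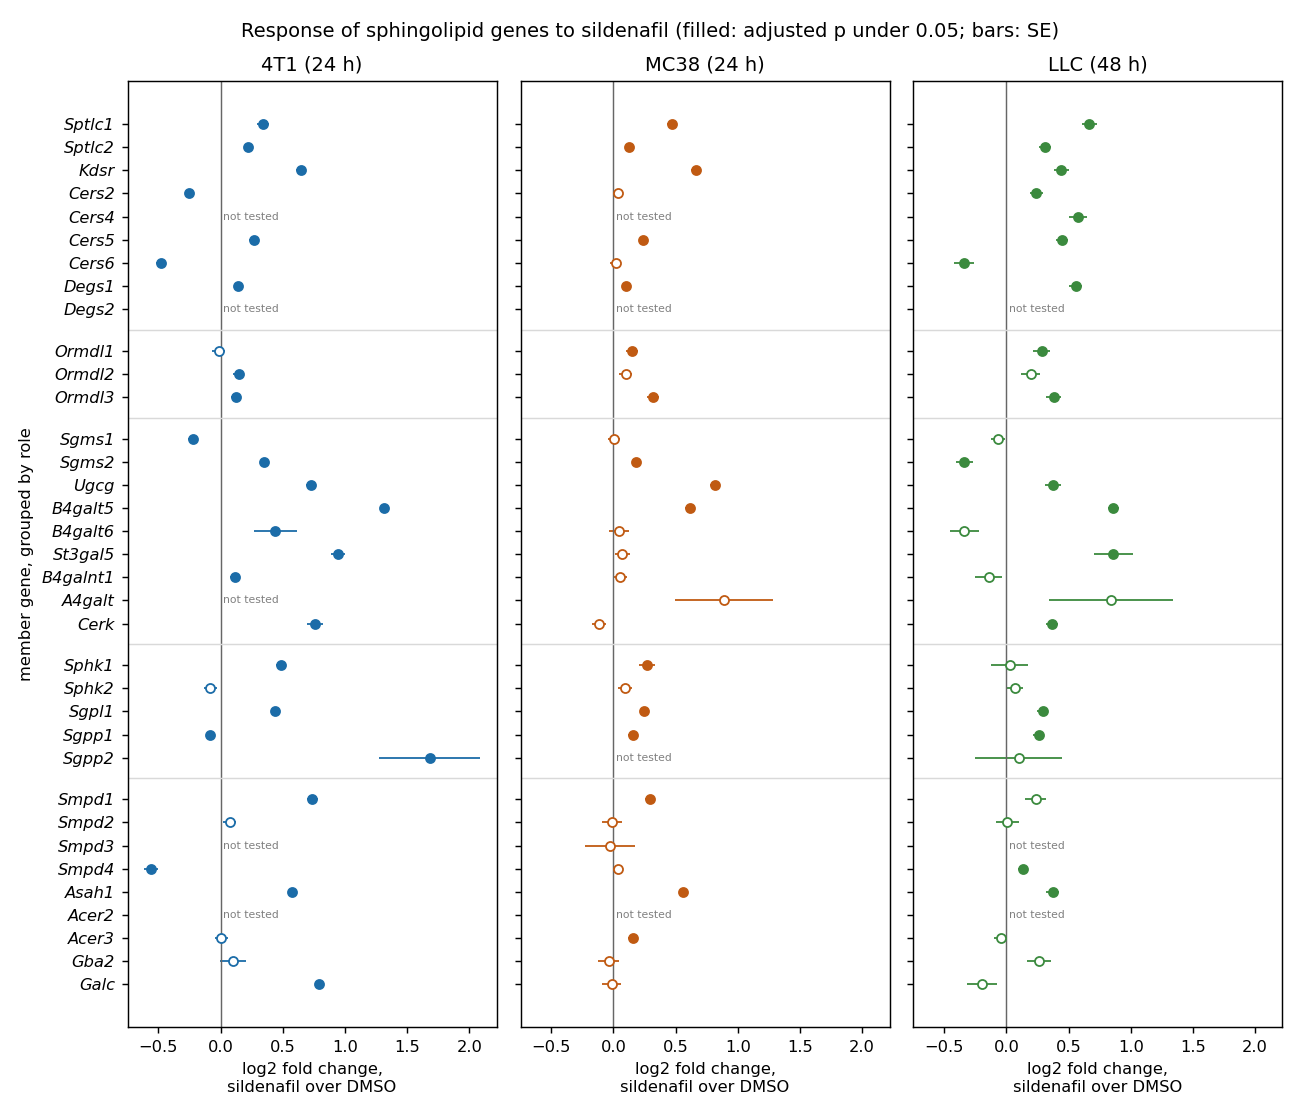
Log2 fold change of each member, sildenafil over DMSO, in the 3 lines, grouped by role from top to bottom as ceramide synthesis, ORMDL regulators, head group addition, sphingosine 1-phosphate metabolism and breakdown. Filled points were called, open points were not, and bars are SE. Filled points lie mostly right of 0 in each line, and B4galt5 in 4T1 has the largest called rise among well-expressed members.

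Summed over the 35 genes, the level went from 2049 ± 16 CPM to 2379 ± 23.4 CPM in 4T1 (SD, n = 3). In MC38 it went from 1829 ± 1.86 to 2192 ± 9.58 CPM, and in LLC from 1595 ± 17.1 to 1943 ± 46.2 CPM. These sums are a description and are dominated by a few abundant genes such as Cers2 and Asah1. Without LLC control replicate 3, 19 members rose and 4 fell in LLC, while 22.4% of all genes were higher and 21.2% lower. All 17 and both of the earlier calls were among them. The added ones were Ormdl2 (0.24, adjusted p = 0.0211) and Smpd1 (0.29, adjusted p = 0.0159), which rose, and B4galt6 (-0.46, adjusted p = 9.96e-05) and Galc (-0.31, adjusted p = 0.00335), which fell. For all 19 members called in LLC, leaving out this library moved the log2 fold change by less than 0.1, at most by 0.075 for Cers6. Adding Gm26917 to the fit as a covariate put a term beside treatment that shares 0.967 of its variance with it in 4T1, 0.85 in MC38 and 0.464 in LLC. The members called then were 2 rising (B4galt5 and Asah1) and 2 falling (Cers6 and Smpd4) in 4T1, where 4.47% and 4.07% of all genes were called. In 4T1 B4galnt1 (-0.11), Sgpp1 (0.079) and Sgpp2 (-1.15) took the other sign under it. In MC38 5 rose (Sptlc1, Kdsr, Ugcg, B4galt5 and Asah1) against 3.85% of all genes, and in LLC 16 rose and 0 fell against 9.74% and 7.06%.

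Of the 29 members tested in all lines, 10 rose in all 3: Sptlc1, Sptlc2, Kdsr, Cers5, Degs1, Ormdl3, Ugcg, B4galt5, Sgpl1 and Asah1. They include 5 of the ceramide synthesis genes, 1 ORMDL regulator, 2 glycolipid synthases, the lyase and a lysosomal ceramidase. Of 11274 genes tested in all lines 5.26% rose in all 3 and 2.69% fell in all 3, and no member fell in all 3. The MC38 call of Degs1 and the 4T1 call of Ormdl3 were lost with DESeq2. Cers2, Sgms2, Sgpp1 and Smpd4 rose in 1 line and fell in another, which is 13.8% of the 29, near the 11.7% of all genes. Of these calls, that of Sgpp1 in 4T1 was lost in 10 of 16 alternatives and that of Smpd4 in LLC in 11 of 16. Sphk2, Smpd2, Smpd3, Gba2 and A4galt were tested in at least 1 line and called in none.

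Promoter sequences were searched for the letters CACGTG, the core of the E-box bound by MYC, USF and MiT/TFE factors, because some members moved together. RefSeq promoters (GRCm38.p6, 250 bases before to 50 after a start site) were at hand for 31 of the 35 genes, as 46 windows of 300 bases, and both strands were searched. The hexamer was found for 7 members, or 22.6%, against 8.09% of 27025 genes in the table (7.15% of 32851 windows): Cers2, Cers6, Degs1, Sgms2, Sphk1, Sgpp2 and Smpd2. A gene counted if any of its windows matched, and the members had more windows per gene (46 for 31, against 32851 for 27025). The longer TCACGTGA, which contains the hexamer, was found for 0 members and for 1.12% of genes (0.974% of windows). TCACNCCAC, a sterol regulatory element type, was found for 0 members and 1.44% of genes (1.24% of windows). Degs1, Cers6 and Sgms2, 3 of the 7 members with the hexamer, are shown with it in capitals and were picked for their differing responses. Whether the hexamer goes with the response was not tested. Degs1 rose in all 3 lines, Cers6 fell in 4T1 and LLC, and Sgms2 rose in 4T1 and MC38 and fell in LLC. B4galt5, with the largest called rise in 4T1 and LLC among members averaging at least 1 CPM, is shown beside them because its window holds none of the 3 motifs. The windows are chr1:182282146-182282445 (minus strand) with the hexamer starting 43 bases before the start site, chr2:68861191-68861490 (plus strand) at 22 bases before, chr3:131488993-131489292 (minus strand) at 117 bases before, and chr2:167349129-167349428 (minus strand).
Degs1: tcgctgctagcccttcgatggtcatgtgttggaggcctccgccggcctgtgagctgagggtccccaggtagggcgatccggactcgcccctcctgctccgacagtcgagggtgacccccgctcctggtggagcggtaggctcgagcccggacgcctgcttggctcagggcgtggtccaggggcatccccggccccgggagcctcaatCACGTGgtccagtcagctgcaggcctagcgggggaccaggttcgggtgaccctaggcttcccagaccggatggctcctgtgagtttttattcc
Cers6: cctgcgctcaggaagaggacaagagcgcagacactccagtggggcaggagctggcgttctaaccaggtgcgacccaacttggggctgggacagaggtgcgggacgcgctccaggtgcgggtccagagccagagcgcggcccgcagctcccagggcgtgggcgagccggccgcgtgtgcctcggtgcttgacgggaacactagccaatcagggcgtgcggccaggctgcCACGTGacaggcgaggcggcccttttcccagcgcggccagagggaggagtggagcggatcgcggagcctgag
Sgms2: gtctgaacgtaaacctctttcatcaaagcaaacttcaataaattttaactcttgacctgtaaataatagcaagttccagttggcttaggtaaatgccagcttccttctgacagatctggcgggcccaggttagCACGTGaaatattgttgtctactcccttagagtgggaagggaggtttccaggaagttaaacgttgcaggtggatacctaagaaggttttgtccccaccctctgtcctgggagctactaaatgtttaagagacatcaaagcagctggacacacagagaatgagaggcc
B4galt5: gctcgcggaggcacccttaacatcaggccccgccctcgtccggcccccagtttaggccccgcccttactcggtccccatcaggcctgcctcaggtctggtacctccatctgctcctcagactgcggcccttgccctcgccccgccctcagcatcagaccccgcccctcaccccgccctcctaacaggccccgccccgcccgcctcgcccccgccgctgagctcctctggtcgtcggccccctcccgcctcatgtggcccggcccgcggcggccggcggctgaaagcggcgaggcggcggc

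Genes of de novo ceramide synthesis rose for the most part. In 4T1, 5 of the 7 tested rose and 2 fell, in MC38 5 of 7 rose and 0 fell, and in LLC 7 of 8 rose and 1 fell. Their median log2 fold changes were 0.22, 0.12 and 0.45. The shares that rose, 71.4%, 71.4% and 87.5%, stand beside 33.5%, 19.5% and 15.1% of all genes. In 4T1 and LLC 28.6% and 12.5% fell, near the 33.3% and 12.2% of all genes, and in MC38 0 fell beside 18.3%. Sptlc1 and Sptlc2 encode the subunits of serine palmitoyltransferase, the enzyme that commits serine to the pathway. In 4T1, Sptlc1 was measured at 31.3, 34.4 and 35.2 CPM in the DMSO libraries and 43.2, 42.0 and 42.6 CPM with sildenafil. MC38 had 41.5, 42.7 and 41.6 CPM in the DMSO libraries and 57.5, 56.5 and 60.3 CPM with sildenafil, and LLC had 24.3, 24.8 and 25.0 CPM in the DMSO libraries and 36.1, 40.4 and 41.4 CPM with sildenafil. Its groups did not overlap in any line, and the changes were 0.34 ± 0.047 (adjusted p = 1.89e-05), 0.47 ± 0.040 (adjusted p = 3.04e-07) and 0.67 ± 0.062 (adjusted p = 9.55e-05), the last a 1.59-fold rise. For Sptlc2, 4T1 had 94.5, 89.8 and 92.7 CPM in the DMSO libraries and 109, 107 and 107 CPM with sildenafil. In MC38 the values were 91.1, 91.2 and 93.3 CPM in the DMSO libraries and 102, 97.5 and 100.1 CPM with sildenafil. In LLC they were 139, 138 and 143 CPM in the DMSO libraries and 165, 175 and 181 CPM with sildenafil. Sptlc2 thus changed less than Sptlc1 in each line (0.22 ± 0.032, 0.12 ± 0.032 and 0.31 ± 0.048 in the same order), without overlap between groups. Whether these paired subunits differed was not tested.

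Kdsr (chr1:106720459-106759727, minus strand, build GRCm38) encodes the reductase that acts next. It stood at 39.6, 39.3 and 38.3 CPM in the DMSO libraries and 58.8, 60.7 and 64.3 CPM with sildenafil in 4T1. For MC38 the values were 34.2, 34.8 and 36.2 CPM in the DMSO libraries and 56.5, 56.0 and 54.2 CPM with sildenafil. LLC showed 39.7, 37.3 and 35.3 CPM in the DMSO libraries and 53.0, 49.4 and 50.2 CPM with sildenafil. The rise was 1.57-fold in 4T1 (adjusted p = 9.40e-09), 1.58-fold in MC38 (adjusted p = 9.39e-09) and 1.36-fold in LLC (adjusted p = 0.000634), and every treated library exceeded every control of its line. Degs1, the dihydroceramide desaturase that completes ceramide, was measured in 4T1 at 137, 144 and 142 CPM in the DMSO libraries and 154, 157 and 157 CPM with sildenafil. MC38 gave 133, 133 and 130.3 CPM in the DMSO libraries and 147, 142 and 137 CPM with sildenafil. LLC gave 75.9, 70.3 and 74.2 CPM in the DMSO libraries and 103, 106 and 114 CPM with sildenafil. The LLC rise was 0.56 ± 0.053 (adjusted p = 0.000117), against 0.14 ± 0.030 in 4T1 and 0.10 ± 0.033 in MC38 (adjusted p = 0.0218). No groups overlapped, but the MC38 call was lost in 7 of 16 alternatives. These include DESeq2 (adjusted p = 0.0716) and the fit of all 18 libraries (0.0608). It was also lost when any of 4 libraries was left out, with adjusted p = 0.0527 without control 1, 0.0576 without control 3, 0.108 without sildenafil 1 and 0.0674 without sildenafil 2. Its relative Degs2, which also hydroxylates, had 0 counts in the 3 control libraries of each line, which allows a level of up to 0.0346 CPM over the 3 LLC controls at a floor of 3 counts.

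The ceramide synthases, which attach fatty acids of differing length to the sphingoid base, went apart. Cers5, which prefers the shorter palmitoyl chain, rose in all lines. It had 74.9, 72.9 and 75.8 CPM in the DMSO libraries and 89.2, 87.8 and 92.0 CPM with sildenafil in 4T1. In MC38 it had 84.5, 82.8 and 81.5 CPM in the DMSO libraries and 98.2, 101 and 94.7 CPM with sildenafil. In LLC it had 88.0, 93.7 and 94.4 CPM in the DMSO libraries and 120.2, 127 and 129 CPM with sildenafil. The groups did not overlap, with changes of 0.27 ± 0.034, 0.24 ± 0.034 and 0.45 ± 0.049 (adjusted p = 1.08e-05, 5.16e-05 and 0.000257). Cers6, whose preference is also for shorter chains, was lower with sildenafil in 4T1, where it had 60.9, 60.5 and 59.2 CPM in the DMSO libraries and 42.8, 42.2 and 44.4 CPM with sildenafil. LLC had 68.2, 60.4 and 54.0 CPM in the DMSO libraries and 51.0, 47.1 and 46.1 CPM with sildenafil. It fell 1.40-fold in 4T1 (adjusted p = 4.40e-08) and 1.27-fold in LLC (adjusted p = 0.0164). The highest treated LLC library was just below the lowest control there, and the LLC call was lost without control 2 (adjusted p = 0.0552), sildenafil 2 (0.0731) or sildenafil 3 (0.0776). In MC38 Cers6 overlapped between groups (0.017 ± 0.045, adjusted p = 0.803).

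Cers2, the synthase of very long chain ceramides and the most abundant of them, fell in 4T1 and rose in LLC. 4T1 had 461, 471 and 472 CPM in the DMSO libraries and 392, 400.3 and 389 CPM with sildenafil. MC38 had 210.0, 209 and 217 CPM in the DMSO libraries and 219, 216 and 215 CPM with sildenafil, with overlapping groups. LLC had 317, 297 and 312 CPM in the DMSO libraries and 349, 361 and 385 CPM with sildenafil. The changes were -0.25 ± 0.028 (adjusted p = 2.65e-06), 0.032 ± 0.029 (adjusted p = 0.407) and 0.24 ± 0.052 (adjusted p = 0.00844). The LLC call was lost without sildenafil replicate 3 (0.20, adjusted p = 0.0549). Cers4 was measurable in LLC alone, at 10.7, 11.4 and 10.3 CPM in the DMSO libraries and 15.8, 15.7 and 16.7 CPM with sildenafil. It rose 1.49-fold there (adjusted p = 0.000533), with all treated libraries above all controls.

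ORMDL proteins bind serine palmitoyltransferase and restrain it. Of the 3 genes, 2 rose in each line and none fell. All genes gave 33.5%, 19.5% and 15.1% higher and 33.3%, 18.3% and 12.2% lower in 4T1, MC38 and LLC. The median log2 fold changes of the 3 were 0.12, 0.15 and 0.28 in the same order. Ormdl3 rose in all lines. In 4T1 it had 30.9, 31.2 and 32.3 CPM in the DMSO libraries and 33.4, 34.1 and 35.4 CPM with sildenafil. The MC38 values were 44.6, 45.3 and 41.0 CPM in the DMSO libraries and 55.6, 55.9 and 51.7 CPM with sildenafil. The LLC values were 23.1, 23.2 and 24.5 CPM in the DMSO libraries and 28.9, 32.5 and 30.7 CPM with sildenafil. These were changes of 0.12 ± 0.042 (adjusted p = 0.0187), 0.32 ± 0.047 (adjusted p = 8.15e-05) and 0.38 ± 0.061 (adjusted p = 0.00195), so the 4T1 rise was the smallest, and its call did not hold in DESeq2 (adjusted p = 0.0511), nor without control 1 (0.0706) or control 2 (0.0682). Ormdl1 was called in MC38 (0.15 ± 0.046, adjusted p = 0.0191) and LLC (0.28 ± 0.069, adjusted p = 0.0139) and was -0.016 ± 0.050 in 4T1. Its MC38 call was lost with DESeq2, and without control 2 (0.0606) or sildenafil 1 (0.0900). Its LLC call was lost without sildenafil 3 (0.0696). Ormdl2 was called in 4T1 (0.15 ± 0.045, adjusted p = 0.0110), but not without control 2 (0.0502) or sildenafil 2 (0.0627). Of its exon length 66.7% overlaps Dnajc14 on the other strand, and 8.72% of that of Ormdl1 overlaps Gm28778 on the same strand. Reads of such neighbours may not have been told apart, since how strand entered the counting is not known here.

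Genes that add a head group to ceramide include B4galt5, Ugcg, St3gal5 and Cerk. In 4T1 7 of the 8 tested rose and 1 fell, in MC38 3 of 9 rose and 0 fell, and in LLC 4 of 9 rose and 1 fell, with medians of 0.58, 0.071 and 0.37. Those that rose were 87.5%, 33.3% and 44.4% of the members tested in 4T1, MC38 and LLC, beside 33.5%, 19.5% and 15.1% of all genes. Those that fell were 12.5%, 0% and 11.1%, beside 33.3%, 18.3% and 12.2% of all genes. The first steps of the glycolipid branch rose in every line. Ugcg (chr4:59189257-59222833, plus strand), glucosylceramide synthase, opens that branch. In 4T1 Ugcg had 49.4, 49.9 and 47.7 CPM in the DMSO libraries and 80.0, 79.1 and 83.8 CPM with sildenafil. Its MC38 values were 94.1, 96.1 and 97.9 CPM in the DMSO libraries and 161, 171 and 175 CPM with sildenafil. Those in LLC were 69.3, 65.6 and 58.4 CPM in the DMSO libraries and 86.2, 83.8 and 80.1 CPM with sildenafil. The groups did not overlap, and Ugcg rose 1.65-fold in 4T1, 1.76-fold in MC38 and 1.29-fold in LLC (adjusted p = 1.47e-09, 9.58e-11 and 0.00295). B4galt5 (chr2:167298444-167349183, minus strand), the main lactosylceramide synthase, adds the next sugar. It was at 65.0, 62.9 and 63.4 CPM in the DMSO libraries and 153, 158 and 164 CPM with sildenafil in 4T1. MC38 libraries had 48.1, 53.4 and 51.1 CPM in the DMSO libraries and 79.0, 76.5 and 78.6 CPM with sildenafil. LLC libraries had 53.1, 55.0 and 56.7 CPM in the DMSO libraries and 96.7, 101 and 102 CPM with sildenafil. The rises were 2.49-fold in 4T1 (1.31 ± 0.035, adjusted p = 4.42e-12), 1.53-fold in MC38 (0.62 ± 0.041, adjusted p = 1.98e-08) and 1.82-fold in LLC (0.86 ± 0.047, adjusted p = 5.00e-06), and the call held under each alternative run in each line. Its promoter, shown above, held none of the motifs searched.

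**Figure D2:**
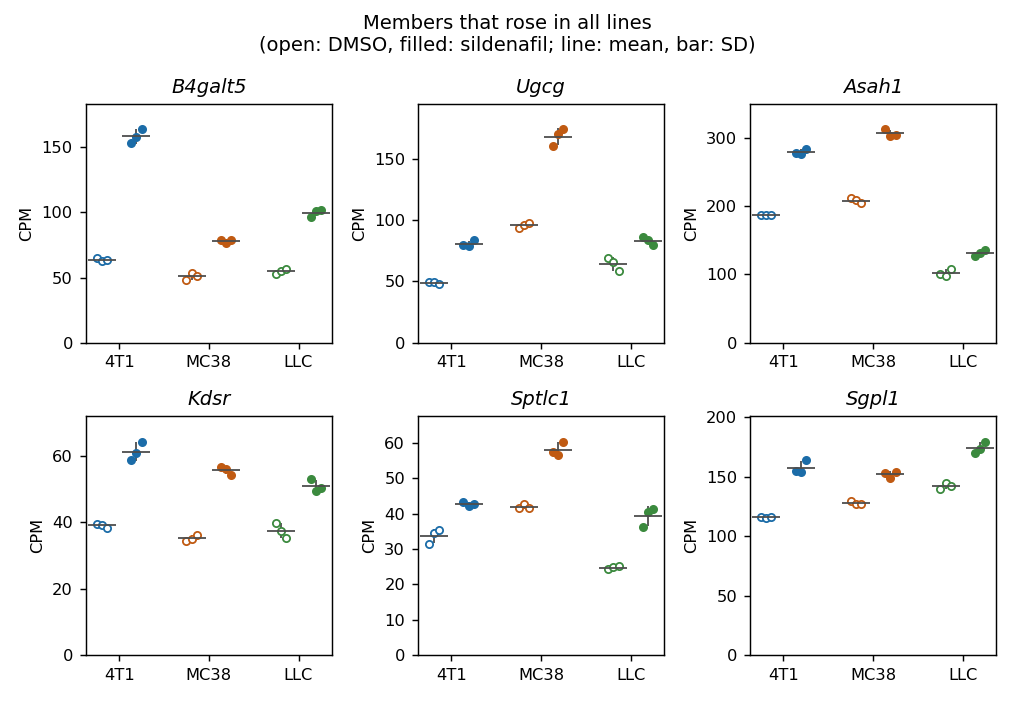
CPM, scaled within each line, of 6 of the members that rose in all 3 lines, for each library (open, DMSO; filled, sildenafil), with the group mean as a line and the SD as a bar. In each panel and line the 3 filled points lie above the 3 open ones.

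The second lactosylceramide synthase, B4galt6, moved otherwise. In 4T1 it was scarce, at 1.34, 1.71 and 1.182 CPM in the DMSO libraries and 1.75, 2.04 and 2.00 CPM with sildenafil. In LLC it had 26.5, 26.5 and 19.97 CPM in the DMSO libraries and 21.0, 18.2 and 18.4 CPM with sildenafil. It rose in 4T1 (0.44 ± 0.17, adjusted p = 0.0348). That call was lost with DESeq2, and without control 1 (adjusted p = 0.0997), control 3 (0.127), sildenafil 2 (0.0975) or sildenafil 3 (0.0596). LLC control 3 lay below 1 treated library, and the LLC change was -0.34 ± 0.12 (adjusted p = 0.0625) with it. St3gal5, which makes the ganglioside GM3 from lactosylceramide, had 7.85, 7.66 and 7.98 CPM in the DMSO libraries and 15.1, 14.7 and 15.4 CPM with sildenafil in 4T1. In MC38 its groups overlapped, at 29.8, 28.2 and 25.2 CPM in the DMSO libraries and 27.9, 29.4 and 29.9 CPM with sildenafil. LLC held little of it, at 1.66, 2.02 and 1.85 CPM in the DMSO libraries and 3.28, 3.8 and 2.96 CPM with sildenafil. It rose 1.93-fold in 4T1 (adjusted p = 7.22e-09) and 1.81-fold in LLC (adjusted p = 0.00384). In MC38 the change was 0.071 ± 0.058 (adjusted p = 0.374). B4galnt1, which extends GM3 towards GM2, was called only weakly: 0.11 ± 0.037 in 4T1 (adjusted p = 0.0151), lost without control 1 (0.0535) or control 3 (0.0672). In MC38 and LLC B4galnt1 did not pass (0.053 ± 0.055 and -0.14 ± 0.11), and 20.7% of its exon length overlaps Slc26a10 on the other strand. A4galt, which makes the globoside Gb3, had at most 26 counts in any library and was not called in MC38 or LLC.

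The sphingomyelin synthases and ceramide kinase use ceramide directly. Sgms2, the synthase found at the plasma membrane as well as the Golgi, had 124, 127 and 129 CPM in the DMSO libraries and 161, 160.2 and 162 CPM with sildenafil in 4T1. MC38 had 136, 134 and 139.6 CPM in the DMSO libraries and 155, 152 and 157 CPM with sildenafil for it. LLC had far less, 31.4, 30.2 and 27.8 CPM in the DMSO libraries and 24.6, 21.9 and 24.2 CPM with sildenafil. It rose in 4T1 (0.35 ± 0.029, adjusted p = 1.89e-07) and MC38 (0.18 ± 0.030, adjusted p = 0.000229) and fell 1.26-fold in LLC (adjusted p = 0.00609), without overlap in any line. Sgms1, the Golgi synthase, fell in 4T1, where it had 53.6, 55.0 and 56.4 CPM in the DMSO libraries and 48.1, 46.1 and 47.1 CPM with sildenafil (-0.22 ± 0.036, adjusted p = 9.20e-05). Its changes in MC38 and LLC, 0.0057 ± 0.046 and -0.070 ± 0.055, did not pass the test. Cerk, which makes ceramide 1-phosphate, had 8.48, 8.55 and 9.38 CPM in the DMSO libraries and 15.5, 14.2 and 14.9 CPM with sildenafil in 4T1. In MC38 its groups overlapped, at 19.7, 17.6 and 18.9 CPM in the DMSO libraries and 17.9, 16.9 and 16.9 CPM with sildenafil. In LLC, where it was most abundant, it had 58.6, 55.8 and 55.6 CPM in the DMSO libraries and 72.3, 72.4 and 74.1 CPM with sildenafil. Cerk rose 1.69-fold in 4T1 (adjusted p = 1.56e-07) and 1.29-fold in LLC (adjusted p = 0.000507), and was -0.12 ± 0.058 in MC38 (adjusted p = 0.124).

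Of the 5 genes of sphingosine 1-phosphate metabolism, 3 rose and 1 fell in 4T1, 3 of the 4 tested rose in MC38 and 2 of 5 rose in LLC. Their median changes were 0.44, 0.20 and 0.098. The shares that rose were 60.0%, 75.0% and 40.0%, with 33.5%, 19.5% and 15.1% of all genes higher, and 1 of 5 fell in 4T1, with 33.3% of all genes lower. Sgpl1, the lyase that ends the pathway, rose in all lines. The 4T1 libraries had 116, 115 and 116 CPM in the DMSO libraries and 155, 154 and 164 CPM with sildenafil. Those of MC38 had 130.0, 127 and 127 CPM in the DMSO libraries and 153, 149 and 154 CPM with sildenafil. Those of LLC had 140.0, 145 and 142 CPM in the DMSO libraries and 170.2, 173 and 179.7 CPM with sildenafil. The rises were 1.36-fold, 1.19-fold and 1.22-fold (adjusted p = 4.64e-08, 8.49e-06 and 0.00121), and no groups overlapped. Sphk1, a sphingosine kinase induced by growth signals, went from 34.9 ± 0.761 CPM to 48.8 ± 1.179 CPM in 4T1 (SD, adjusted p = 9.43e-08) and from 18.9 ± 0.656 CPM to 22.8 ± 2.21 CPM in MC38 (adjusted p = 0.00518). In LLC Sphk1 was low and overlapped between groups (0.026 ± 0.15). Sphk2, the more nuclear kinase, was not called in any line, with changes of -0.082 ± 0.052, 0.093 ± 0.060 and 0.069 ± 0.064, and 13% of its exon length overlaps Dbp on the other strand.

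Sgpp1 and Sgpp2 are phosphatases that turn sphingosine 1-phosphate back into sphingosine. Sgpp1 rose in MC38 (51.2 ± 1.49 CPM to 57.1 ± 1.60 CPM, SD, adjusted p = 0.00526) and LLC (95.8 ± 2.56 CPM to 115 ± 2.31 CPM, adjusted p = 0.00243). In 4T1 it fell by little (118 ± 3.83 CPM to 111 ± 1.37 CPM, adjusted p = 0.0303). That call was lost in 10 of 16 alternatives, among them leaving out control 2 (adjusted p = 0.109), control 3 (0.107), sildenafil 1 (0.0547) or sildenafil 2 (0.0514). Sgpp2 was near the limit of detection in 4T1, at 0.104, 0.115 and 0.0985 CPM in the DMSO libraries and 0.367, 0.241 and 0.448 CPM with sildenafil, or 4 to 23 counts per library. Its groups did not overlap and it rose 3.21-fold (1.68 ± 0.40, adjusted p = 0.00225). It passed the filter on low counts through the group where it was high. In LLC its groups overlapped, at 0.552, 0.636 and 0.455 CPM in the DMSO libraries and 0.718, 0.311 and 0.710 CPM with sildenafil.

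Among 9 genes of sphingomyelin and ceramide breakdown, 3 of the 7 tested rose and 1 fell in 4T1, 3 of 8 rose and 0 fell in MC38, and 2 of 7 rose and 0 fell in LLC. Medians were 0.0997, 0.0097 and 0.13. The 4T1 share that rose, 42.9%, was near the 33.5% of all genes, and that which fell, 14.3%, was below 33.3%. In MC38 and LLC 37.5% and 28.6% rose, beside 19.5% and 15.1% of all genes, and none fell, beside 18.3% and 12.2%. Asah1 (chr8:41340197-41374773, minus strand), the lysosomal acid ceramidase, rose in all lines and was among the most abundant members. 4T1 held 188, 188 and 187 CPM in the DMSO libraries and 278, 277 and 284 CPM with sildenafil. MC38 held 212, 209 and 204 CPM in the DMSO libraries and 313, 303 and 305 CPM with sildenafil. LLC held 100.4, 97 and 108 CPM in the DMSO libraries and 128, 132 and 137 CPM with sildenafil. No groups overlapped, and the rises were 1.49-fold, 1.47-fold and 1.3-fold (adjusted p = 5.92e-10, 8.93e-10 and 0.000939). Smpd1, the lysosomal acid sphingomyelinase, rose from 21.3 ± 0.901 CPM to 35.5 ± 0.101 CPM in 4T1 (SD, adjusted p = 6.97e-09) and from 36.9 ± 0.472 CPM to 45.3 ± 0.424 CPM in MC38 (adjusted p = 3.29e-05). In LLC Smpd1 was at 10.8, 9.80 and 11.4 CPM in the DMSO libraries and 12.8, 13.1 and 11.9 CPM with sildenafil, a change of 0.24 ± 0.084 (adjusted p = 0.0606) without overlap between groups. Acer3, an alkaline ceramidase, was called in MC38 alone (0.16 ± 0.035, adjusted p = 0.00233), with changes of 0.0069 ± 0.051 in 4T1 and -0.047 ± 0.054 in LLC.

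Galc, the lysosomal galactosylceramidase, rose in 4T1, where it had 38.4, 38.9 and 39.4 CPM in the DMSO libraries and 65.7, 66.7 and 70.4 CPM with sildenafil. In MC38 its groups overlapped, at 22.4, 19.9 and 25.2 CPM in the DMSO libraries and 21.2, 23.1 and 22.7 CPM with sildenafil. In LLC they overlapped through control 3, at 28.8, 29.4 and 21.9 CPM in the DMSO libraries and 24.8, 20.7 and 24.4 CPM with sildenafil. The 4T1 rise was 1.74-fold (adjusted p = 6.81e-10), against -0.013 ± 0.076 in MC38 (adjusted p = 0.917) and -0.20 ± 0.12 in LLC (adjusted p = 0.268). Smpd4, a neutral sphingomyelinase of the endoplasmic reticulum and nuclear envelope, fell in 4T1, where it had 48.1, 52.4 and 49.0 CPM in the DMSO libraries and 32.9, 32.1 and 36.8 CPM with sildenafil. In LLC it had 73.2, 73.9 and 75.4 CPM in the DMSO libraries and 81.3, 80.6 and 81.9 CPM with sildenafil. The fall in 4T1 was 1.47-fold (adjusted p = 6.75e-07). The LLC rise was 0.13 ± 0.042 (adjusted p = 0.0430) and was lost in 11 of 16 alternatives, among them when any library except control 3 was left out, with adjusted p = 0.127 and 0.0959 without control 1 and 2. Without sildenafil 1, 2 and 3 it was 0.0956, 0.110 and 0.142. Smpd2, a neutral sphingomyelinase, and Gba2, the non-lysosomal glucosylceramidase, were not called in any line. Smpd3, another neutral sphingomyelinase, was tested in MC38 alone and stood at 1.40, 1.89 and 1.65 CPM in the DMSO libraries and 2.04, 1.40 and 1.41 CPM with sildenafil (-0.028 ± 0.20). Acer2, the Golgi ceramidase, had 6 counts over the 3 control libraries of 4T1 and 0 over those of LLC.

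Responses were compared between the lines by a test of the difference itself on all 18 libraries. MC38 and 4T1 were both treated for 24 h but grown in different media. Between them 12 of 33 members differed, 5 with a higher and 7 with a lower log2 fold change in MC38. Of all 16040 genes 34.6% differed, which is near the members' share. Between LLC and 4T1, 21 of 33 differed (8 higher, 13 lower in LLC; all genes 42%), and between LLC and MC38 13 of 33 (8 higher, 5 lower; all genes 22.3%). The comparisons share libraries. Cerk had the largest called difference between MC38 and 4T1, -0.89 ± 0.078 (adjusted p = 8.14e-09), having risen in 4T1. St3gal5 followed with -0.89 ± 0.094 (adjusted p = 1.23e-07) and Galc with -0.82 ± 0.13 (adjusted p = 8.53e-05). B4galt5 rose in both lines but less in MC38, with a difference of -0.71 ± 0.059 (adjusted p = 3.16e-09). In the same comparison Smpd4 and Cers6, which fell in 4T1, had differences of 0.58 ± 0.067 and 0.48 ± 0.086 (adjusted p = 4.39e-07 and 0.000118).

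Between LLC and 4T1 the duration and the medium differ as well as the line. Galc had -0.99 ± 0.13 (adjusted p = 8.37e-06), or -1.11 without LLC control 3, and B4galt6 had -0.77 ± 0.19 (adjusted p = 0.00208), or -0.89 without it. Smpd4 went the other way, 0.69 ± 0.066 (adjusted p = 1.57e-08), or 0.71 without that library. Sgpp2 had the largest value, -1.58 ± 0.62 (adjusted p = 0.0440), on few counts, and this call was lost in 10 of 19 alternatives, including leaving out LLC control 1, control 2 or sildenafil 2 or any 4T1 library except sildenafil 2, with values for Sgpp2 from -1.64 to -1.28 where it was lost. Sgms2, which rose in 4T1 and fell in LLC, differed by -0.69 ± 0.063 (adjusted p = 8.78e-09). Cers2 and Sgpp1, also with opposite calls, differed by 0.49 ± 0.054 and 0.35 ± 0.052. Between LLC and MC38, St3gal5 had 0.80 ± 0.14 (adjusted p = 0.000162), Sgms2 -0.50 ± 0.063 (adjusted p = 4.25e-06), Cerk 0.50 ± 0.072 (adjusted p = 2.47e-05) and Degs1 0.47 ± 0.059 (adjusted p = 3.99e-06). Without LLC control 3 these were 0.81, -0.55, 0.49 and 0.48. The rises of Ugcg and Kdsr were smaller in LLC than in MC38, with differences of -0.42 ± 0.068 and -0.21 ± 0.066, and those of Sptlc1 and Cers5 were larger by 0.21 ± 0.074 and 0.22 ± 0.056 (adjusted p = 8.43e-05, 0.0275, 0.0429 and 0.00572).

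**Figure D3:**
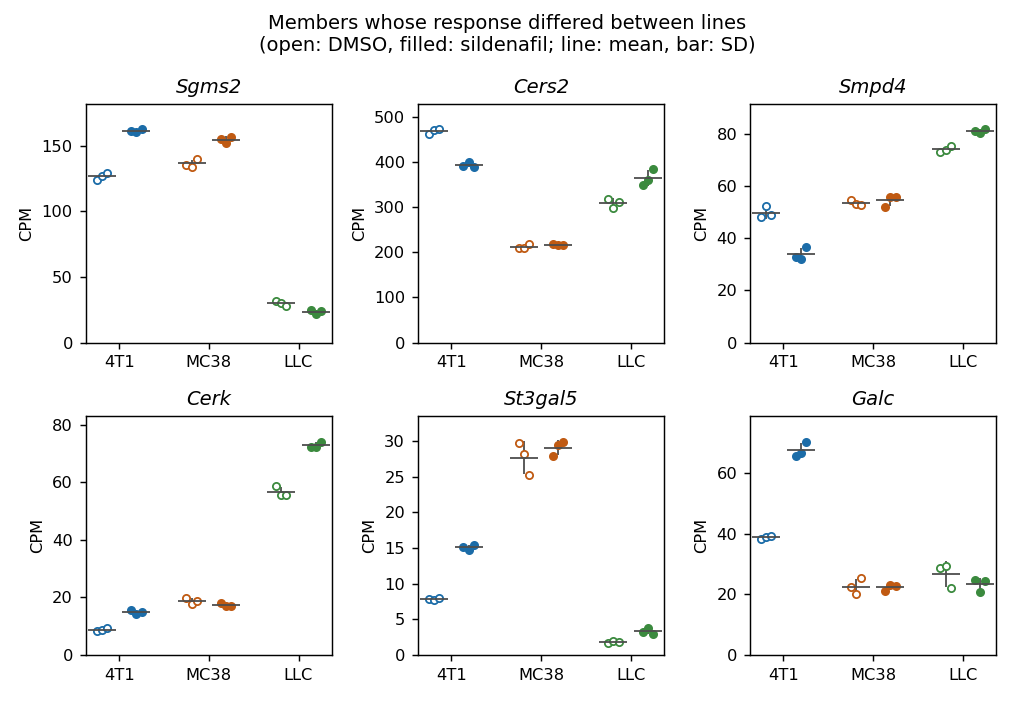
CPM, scaled within each line, of 6 members whose response differed between lines, for each library (open, DMSO; filled, sildenafil), with mean and SD. Sgms2 rises in 4T1 and MC38 and falls in LLC, Cers2 and Smpd4 fall in 4T1 and rise in LLC, and Cerk, St3gal5 and Galc overlap between groups in MC38. The LLC call of Smpd4 was lost in 11 of 16 alternatives, and that of Cers2 without sildenafil replicate 3.

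Related enzymes moved unequally, so their shares of the family were compared. Shares are of the family's summed counts per kilobase of exon, given as mean ± SD of 3 libraries. They are a description without a test, since 3 libraries against 3 cannot give an exact permutation p below 0.10. Among the ceramide synthases, Cers2 held 82.1% ± 0.308 of the 4T1 controls' sum and 78.0% ± 0.656 with sildenafil, while Cers5 went from 13.6% ± 0.279 to 18.4% ± 0.546. In MC38 Cers2 went from 63.4% ± 0.401 to 61.0% ± 0.498 and Cers5 from 25.7% ± 0.803 to 28.6% ± 0.686. In LLC Cers6 went from 5.82% ± 0.646 to 3.84% ± 0.363 and Cers5 from 22.1% ± 1.181 to 25.1% ± 0.387. The Cers5 share was thus higher with sildenafil in every line, without overlap between groups. Sgms2 made up 79.6% ± 0.0756 of the sphingomyelin synthases in 4T1 controls and 85.3% ± 0.263 with sildenafil, but went from 62.6% ± 1.5 to 58.1% ± 2.37 in LLC. B4galt5 held 75.3% ± 3.47 of the lactosylceramide synthases in LLC controls and 87.5% ± 1.19 with sildenafil, and 85.6% ± 0.674 and 89.9% ± 0.864 in MC38. Of the sphingomyelinases in 4T1, lysosomal Smpd1 went from 41.3% ± 1.46 to 58.7% ± 1.43 and Smpd4 from 35.7% ± 1.35 to 20.7% ± 0.976, so their order turned. Sphk1 held 53.2% ± 1.77 of the sphingosine kinases in 4T1 controls and 62.7% ± 0.291 with sildenafil, against 13.6% ± 2.58 and 13.2% ± 0.669 in LLC.

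**Figure D4:**
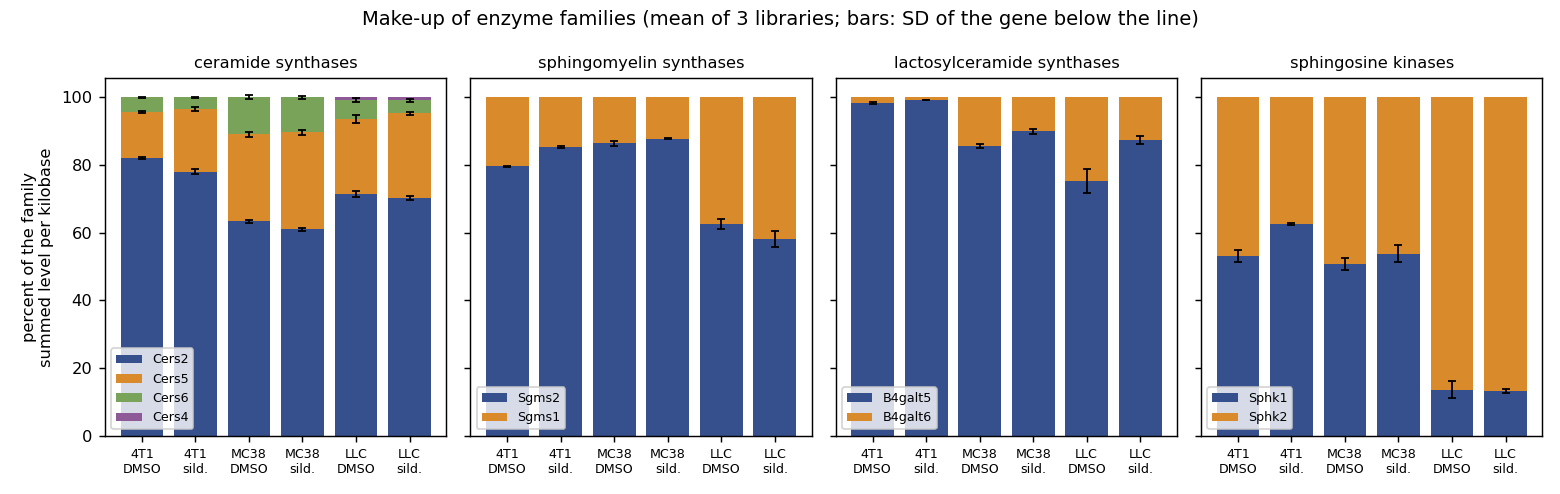
Share of each gene in its family's summed counts per kilobase of exon, in percent, for the 6 groups (mean of 3 libraries; bars, SD). Cers2 makes up most of the ceramide synthases in every group, and Sphk1 makes up 13.6% of the sphingosine kinases in LLC controls against 53.2% in 4T1 controls.

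Without drug, the same few members led in every line. In CPM per kilobase of exon, scaled over all 18 libraries, Cers2, Asah1, Degs1 and Cers5 were the 4 highest members in each. In 4T1 they stood at 122 ± 1.33, 52.9 ± 0.256, 52.1 ± 1.27 and 20.1 ± 0.348 (SD, n = 3). In LLC they stood at 82.6 ± 2.85, 29.5 ± 1.78, 27.9 ± 1.11 and 25.6 ± 1.05. In MC38 Asah1 led with 64.4 ± 1.11, before Cers2 with 60.4 ± 1.36, Degs1 with 53.4 ± 0.576 and Cers5 with 24.5 ± 0.425. Asah1 and Degs1 differed by less than the larger of their SDs in 4T1 and in LLC, so their order there is not resolved.

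Levels in DMSO differed by at least 2-fold, with an adjusted p under 0.05, for 9 of 33 members between 4T1 and MC38 (3 higher and 6 lower in 4T1; 44.1% of all genes). Between 4T1 and LLC 10 did (5 higher, 5 lower; 48% of all genes), and between MC38 and LLC 13 did (10 higher and 3 lower in MC38; 36.1%). Several ganglioside and head group genes were among those that differed. Their CPM here are scaled over all 18 libraries, so they differ from the values within each line given above. B4galnt1 was at 57.6, 58.6 and 56.8 CPM in 4T1, 27.8, 28.1 and 27.6 CPM in MC38 and 4.87, 4.92 and 5.37 CPM in LLC, or 11.4-fold higher in 4T1 than in LLC (adjusted p = 2.65e-23). St3gal5 was highest in MC38, at 31.2, 29.5 and 26.5 CPM, against 7.53, 7.35 and 7.61 CPM in 4T1 and 1.62, 1.98 and 1.83 CPM in LLC, 16-fold above LLC (adjusted p = 5.06e-21). B4galt6 was lowest in 4T1, at 1.28, 1.63 and 1.13 CPM, with 12, 11.9 and 12.3 CPM in MC38 and 26, 26 and 19.7 CPM in LLC, 17.5-fold above 4T1 (adjusted p = 2.78e-18). Sgms2 was 4.14-fold and 4.88-fold higher in 4T1 and MC38 than in LLC, and Cerk was 6.62-fold higher in LLC than in 4T1. Sphk1 was 8.93-fold higher in 4T1 than in LLC and Smpd1 3.68-fold higher in MC38 than in LLC.

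Some members were all but absent from a line. Cers4 had 932 counts over the LLC controls, 2 over the 4T1 controls and 0 over the MC38 controls. In CPM of unscaled library totals, the ratio of LLC to 4T1 was 774 (95% interval for counting error 214 to 6398). With a floor of 3 counts over the group it was 516, and edgeR's estimate was 626. The ratio of LLC to MC38 was 335 at that floor. At the 0 counts measured in MC38, the 95% lower limit for counting error was 272. Reads were counted without molecular identifiers, so such intervals cover counting error only. The CPM that follow are scaled over all 18 libraries. Smpd3 in MC38 was at 1.47, 1.98 and 1.73 CPM, against 0.020, 0.110 and 0.117 CPM in 4T1 and 0.305, 0.110 and 0.129 CPM in LLC (log2 difference 3.22 ± 0.37, adjusted p = 3.80e-08). A4galt was at 0.376, 0.234 and 0.170 CPM in MC38 and 0.135, 0.404 and 0.353 CPM in LLC, and had 1 count over the 4T1 controls. Sgpp2 had 3 counts over the MC38 controls, against 0.10, 0.110 and 0.0939 CPM in 4T1 and 0.542, 0.624 and 0.450 CPM in LLC. These genes passed the filter on low counts through the line where they were higher.

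**Figure D5:**
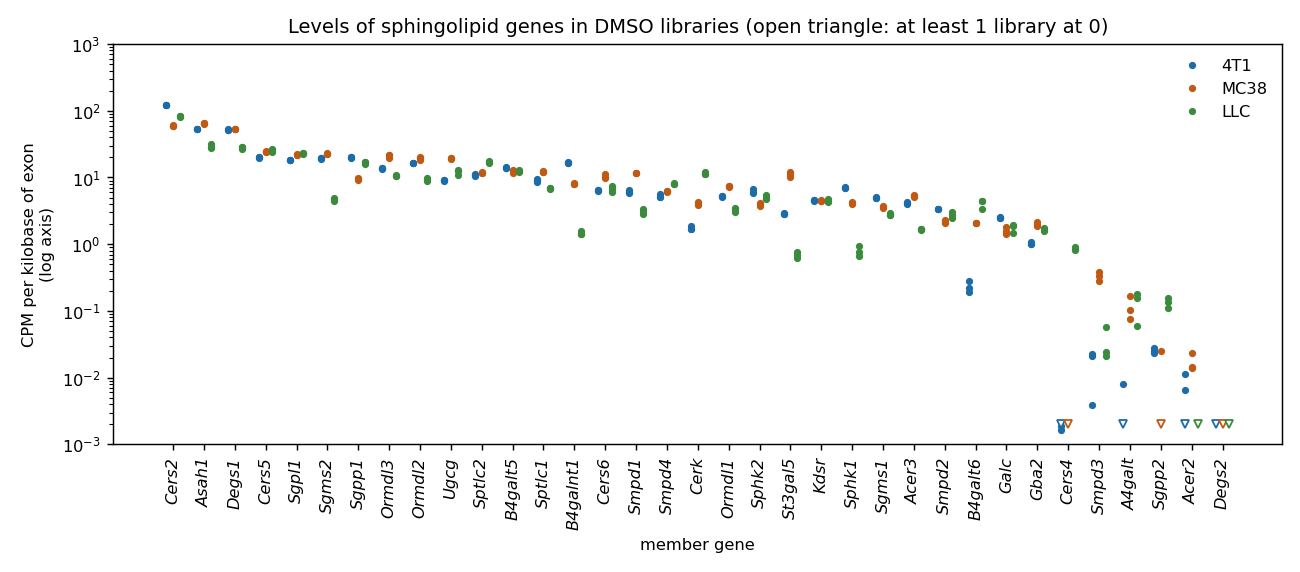
Level of each member in the DMSO libraries in CPM per kilobase of exon (log axis), 1 point per library, coloured by line, with genes ordered by their mean level. An open triangle marks a gene listed at 0 in at least 1 library of the line. Cers2, Asah1, Degs1 and Cers5 lead in each line, while Cers4, Smpd3, A4galt, Sgpp2, Acer2 and Degs2 lie at the low end.

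Genes of the same pathway that are not among the 35 were read from lists, also chosen with earlier results of these data known. Of 24 other synthesis and head group genes, 9 of the 15 tested rose and 2 fell in 4T1, 5 of 14 rose and 2 fell in MC38, and 5 of 14 rose and 0 fell in LLC, with medians of 0.24, 0.078 and 0.22. The shares that rose were 60.0%, 35.7% and 35.7%, beside 33.5%, 19.5% and 15.1% of all genes. Those that fell were 13.3%, 14.3% and 0%, beside 33.3%, 18.3% and 12.2%. Cers3, a synthase of skin ceramides, fell in 4T1 (-1.69 ± 0.17, adjusted p = 1.24e-06) and Fa2h, a fatty acid hydroxylase, rose there (1.67 ± 0.18, adjusted p = 1.59e-06). Col4a3bp, which encodes the ceramide carrier CERT, rose in 4T1 (0.58 ± 0.037), MC38 (0.40 ± 0.033) and LLC (0.57 ± 0.049). Elovl7, a fatty acid elongase, rose in 4T1 (0.60 ± 0.046) and MC38 (0.63 ± 0.077). Of 20 other breakdown genes and activators, 11 of 17 rose and 3 fell in 4T1, 11 of 16 rose and 1 fell in MC38, and 5 of 15 rose and 0 fell in LLC, with medians of 0.61, 0.29 and 0.083. The shares that rose, 64.7%, 68.8% and 33.3%, stand beside 33.5%, 19.5% and 15.1% of all genes. Those that fell, 17.6%, 6.25% and 0%, stand beside 33.3%, 18.3% and 12.2%. Gla, the alpha-galactosidase of Gb3, changed by 1.41 ± 0.052 in 4T1 and 0.51 ± 0.056 in MC38 and did not pass in LLC (0.14 ± 0.057, adjusted p = 0.0851). The sialidase Neu1 changed by 1.40 ± 0.047 in 4T1 and 0.77 ± 0.050 in MC38, and the sulfatase Arsa by 1.06 ± 0.042 and 0.47 ± 0.040. In LLC neither passed (0.21 ± 0.075 for Neu1 and 0.019 ± 0.053 for Arsa, adjusted p = 0.0601 and 0.819). The genes of this list that fell, named after their values were seen, were Smpdl3b in 4T1 (-0.37 ± 0.035) and MC38 (-0.52 ± 0.048), and Neu3 (-0.51 ± 0.18) and Scarb2 (-0.18 ± 0.031) in 4T1. Of 13 genes for sphingosine 1-phosphate receptors, transport and later steps, 3 of 8 rose and 3 fell in 4T1, 3 of 10 rose and 2 fell in MC38, and 3 of 9 rose and 2 fell in LLC. In 4T1 these are 37.5% in each direction, near the 33.5% and 33.3% of all genes. In MC38 30.0% rose and 20% fell (all genes 19.5% higher and 18.3% lower), and in LLC 33.3% and 22.2% (all genes 15.1% and 12.2%). The receptor S1pr1 rose in LLC (0.68 ± 0.15, adjusted p = 0.0115) and MC38 (0.22 ± 0.081, adjusted p = 0.0465). The aldehyde dehydrogenase Aldh3a2, which acts after the lyase, rose in 4T1 (0.71 ± 0.037), the lipid phosphatase Plpp1 rose in LLC (0.60 ± 0.066), and the transporter Mfsd2b fell in 4T1 (-0.56 ± 0.21, adjusted p = 0.0343).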

How the data were processed

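The authors deposited a table of RSEM expected counts per gene for the 18 libraries. Per the labels' protocols, libraries came from a stranded poly(A) mRNA kit and were read from both ends. The tools named, per the submitters' processing notes, are STAR 2.7.0f, RSEM 1.3.1, cutadapt 1.18 and bcl2fastq 2.17, and the build is mm10. Their order, the strand setting and the gene annotation stay unknown: not given in the sources used here. All 55450 identifiers matched GENCODE M21, from which positions, exon lengths and overlaps were taken. RSEM shares reads between similar genes, and 4.3% to 6.91% of values per library were not whole.

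Expected counts were rounded. Each line's 6 libraries were fitted with edgeR 4.0.16 in R 4.3.3 (filterByExpr, TMM, robust quasi-likelihood F test, Benjamini-Hochberg adjustment over all genes tested, threshold 0.05). Response differences and DMSO levels between lines came from 1 fit of all 18 libraries with 1 coefficient per group, and DMSO differences also had to reach 2-fold. The SE is the log2 fold change divided by the square root of F. Alternatives were DESeq2 1.42.0, scaling by RLE factors or by library totals, a filter of 5 CPM in 3 libraries and none, unrounded counts, protein-coding genes alone, the replicate number as a block, all 18 libraries, Gm26917 as a covariate, a 1.5-fold threshold and each library left out. The Gm26917 covariate and the 1.5-fold threshold were applied within lines only. The tests were also run on simulated counts, and the outcome is not given here. Plots used matplotlib.

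The members and lists were chosen with earlier results of these data known. Values in every library are given for members with the 4 largest called rises or falls per line (mean of at least 1 CPM), those called alike in all lines, the 4 largest called response differences per pair of lines, and the 4 highest levels per line and largest called DMSO differences per pair. At most 4 other pathway genes are named per list. Levels per kilobase order genes only.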

Additional observations from a re-analysis of the deposited data

Results flagged for a closer look

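These members had the largest tested differences in response between lines, with the interaction tested in edgeR on all 18 libraries and p-values adjusted over all genes. Between MC38 and 4T1 at 24 h, the difference in log2 fold change was -0.89 ± 0.078 (SE) for Cerk, -0.89 ± 0.094 for St3gal5, -0.82 ± 0.13 for Galc and -0.71 ± 0.059 for B4galt5, each lower in MC38. Their adjusted p-values were 8.14e-09, 1.23e-07, 8.53e-05 and 3.16e-09. In 4T1 all 3 treated libraries exceeded all controls for each of these genes, while in MC38 the groups overlapped for all but B4galt5. The genes were picked by that difference in the same libraries, so this is a description and not a separate test.

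Between LLC at 48 h and 4T1 at 24 h the differences were -1.58 ± 0.62 for Sgpp2, -0.99 ± 0.13 for Galc, -0.77 ± 0.19 for B4galt6 and 0.69 ± 0.066 for Smpd4 (adjusted p = 0.0440, 8.37e-06, 0.00208 and 1.57e-08). Sgpp2 rests on at most 23 counts per library. Between LLC and MC38 they were 0.80 ± 0.14 for St3gal5, -0.50 ± 0.063 for Sgms2, 0.50 ± 0.072 for Cerk and 0.47 ± 0.059 for Degs1 (adjusted p = 0.000162, 4.25e-06, 2.47e-05 and 3.99e-06). Line and duration cannot be told apart in the LLC comparisons, nor line and medium in those with 4T1.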

How the results depend on the processing

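With the Gm26917 level as a covariate the members rising were 2 in 4T1 and 5 in MC38, and those falling were 2 in 4T1 and 0 in LLC. Of all genes, 4.47% and 3.85% were then higher in 4T1 and MC38, and 4.07% and 7.06% lower in 4T1 and LLC. In 4T1 that setting turned the direction of B4galnt1 (-0.11), Sgpp1 (0.079) and Sgpp2 (-1.15). In 4T1 and MC38 the covariate shares most of its variance with treatment. At a change of at least 1.5-fold, 8 members rose and 0 fell in 4T1, 3 rose in MC38, and 3 rose and 0 fell in LLC. Of all genes 13.2%, 2.52% and 2.48% were that much higher in 4T1, MC38 and LLC, and 7.06% and 3.38% lower in 4T1 and LLC. Leaving out each library in turn gave 1 to 4 falling in LLC, the highest without LLC control 3. Without that library 21.2% of all genes were lower, against 12.2% in the main fit. Of the 60 called member responses 23 held under each of the up to 16 alternatives other than the 1.5-fold threshold: 4 of 25 in 4T1, 5 of 16 in MC38 and 14 of 19 in LLC. Only the covariate ended 16, 9 and 1 of the others. Of the 12 response differences given above, 11 held under every alternative run between lines, and Sgpp2 between LLC and 4T1 did not. The Gm26917 covariate was not among those alternatives, so how these differences stand under it was not tested. They were also picked as the largest in these same libraries. Counts of response differences and of DMSO differences stayed within 1.5 times under all 21 alternatives. With the replicate block, 20 rose and 4 fell in 4T1, 16 rose and 0 fell in MC38, and 17 rose and 3 fell in LLC. All genes then gave 33% higher and 32.4% lower in 4T1, 21.9% and 22% in MC38, and 15.6% and 14.5% in LLC. After group means were removed, the correlation of same-numbered libraries was -0.072 to 0.083 (4T1), 0.050 to 0.26 (MC38) or -0.10 to 0.23 (LLC), so the numbers were not taken as pairs. Not every library correlated best with its own number. Depth limits Sgpp2, A4galt and Smpd3, which had few counts in most libraries.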
